A study of Mus musculus with 5 samples.

Results

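Rab GTPases are small switch proteins on membranes that give transport vesicles and organelles their identity. The Rab genes described here are every gene of the authors' deposited comparison whose symbol is Rab followed by a number and, in some, a letter, which gave 51 of the 14927 genes in that table. All 51 were found among the 57186 genes of the library tables, and all 51 passed the expression filter that left 16412 genes for testing. The study compared atria of mice that carry the E990G change in 1 copy of the collagen receptor gene Mrc2 (het) with atria of wild-type mice (WT). Libraries of 3 het samples (replicates 5, 6 and 7) and 2 WT samples (replicates 7 and 8), all labelled batch 2, were analysed here. The series describes 7 het and 8 WT mice aged 4 to 10 months, whose tissue was frozen at once. The labels used here give no age or sex for a single sample and do not say how the change was introduced. In bulk tissue, fewer cells of a type and less RNA per cell cannot be told apart.

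A Rab protein is loaded with GTP by an exchange factor, binds effectors such as tethers and motors while loaded, and is switched off by a GTPase-activating protein. A lipid anchor is added with the help of an escort protein, and a dissociation inhibitor takes the inactive form off the membrane for reuse. MRC2 is an endocytic receptor that cycles between the cell surface and endosomes, and atrial muscle cells store natriuretic peptide in secretory granules, so uptake and secretion routes both run in this tissue.

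Depth was lowest in WT 8 (17784601 expected counts) and highest in het 7 (28353091), with 13% to 17.7% of each total in mitochondrially encoded genes. The atrial genes Nppa, Myl7, Myl4 and Sln stood between 2052 and 32578 CPM (reads scaled to library size) in every library, and the ventricular gene Myl2 between 1.02 and 79.1 CPM. Each of these 4 atrial genes was lower in every het library than in either WT library, with Nppa at 18034 to 20968 CPM in het and 27079 to 32578 CPM in WT and Myl4 at 4272 to 5002 CPM and 6907 to 7558 CPM. These chamber genes were chosen after the data were seen. The 5 markers of a separate cardiomyocyte list summed to 33289 to 39103 CPM in het and 36425 to 42165 CPM in WT, with overlap. Of these markers edgeR called 1 higher and 0 lower in het. The part of the atrial gene difference in the Rab values was not tested. Mrc2 itself was at 37.9, 31 and 46.7 CPM in het and 43.6 and 34.2 CPM in WT, which does not check the labels, since the change leaves the gene in place. The Y-linked gene Ddx3y had 938 expected counts in WT 7 and at most 3 in the other 4 libraries. Xist, made in female cells, had 13247 to 15280 expected counts in the het libraries, 21.5 in WT 7 and 6117 in WT 8. By these genes, WT 7 is the only male library, so sex differs within WT and is not balanced between the groups. The part of sex in the results was not tested. WT 7 and WT 8 therefore come from different animals, while of the het replicates only their labels as separate samples are known. The p-values measure the spread between these libraries, which may in part be technical.

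A minority of the members made up most of the Rab pool. Levels of different genes are compared in TPM, RSEM's abundance scaled to transcript length and library size. The 51 genes summed to 1340, 1469 and 1565 TPM in het 5, 6 and 7 and to 1374 and 1352 TPM in WT 7 and 8, and all values below are given in this order of libraries. The 12 most abundant members held 64.4% to 65.7% of the sum in each library. By mean level, 3 members stood above 100 TPM, 25 between 10 and 100, 20 between 1 and 10 and 3 below 1.

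Rab2a, which acts between the endoplasmic reticulum (ER) and the Golgi, had the highest mean level, at 129.9, 145 and 156 TPM in het and 112 and 139 TPM in WT. Rab7, the Rab of late endosomes and lysosomes, followed at 118, 124 and 142 TPM in het and 117 and 109.9 TPM in WT. Rab1b, which governs export from the ER, was at 93.8, 105 and 121 TPM in het and 134 and 107 TPM in WT. The ranges of these 3 neighbours over the libraries overlapped, so their order is not firm.

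Below them came members of most steps of the membrane system, given as mean ± SD with n = 3 for het and n = 2 for WT. The recycling endosome gene Rab11b had 99.5 ± 5.28 TPM in het and 99.7 ± 11 TPM in WT. Rab1a, the partner of Rab1b in ER export, had 89.9 ± 8.81 TPM in het and 77.4 ± 8.51 TPM in WT. Rab28, which is tied to cilia, had 70.9 ± 1.28 TPM in het and 68.4 ± 4.65 TPM in WT. Rab11b and Rab28 differed little between the groups on this scale. Rab1a had the higher mean in het, with overlap (80.2, 92.1 and 97.4 TPM in het and 71.4 and 83.4 TPM in WT).

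Rab12, which sends receptors from recycling endosomes to degradation, had 62.8 ± 9.75 TPM in het and 61.6 ± 7.79 TPM in WT. Rab14, which links endosomes and Golgi, had 59.1 ± 5.56 TPM in het and 43.9 ± 6.43 TPM in WT. Rab3a, a Rab of regulated exocytosis, had 46.2 ± 2.99 TPM in het and 55.3 ± 3.13 TPM in WT. Rab14 was higher and Rab3a lower in every het library than in either WT library on the TPM scale.

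Rab11a, the close relative of Rab11b, had 47.2 ± 1.83 TPM in het and 49 ± 12.9 TPM in WT. Rab6a, of Golgi traffic, had 49.2 ± 3.7 TPM in het and 34.9 ± 2.5 TPM in WT, and the early endosome gene Rab5c had 41.7 ± 1.21 TPM in het and 43.4 ± 4.79 TPM in WT. At the other end of the order, Rab37, Rab19 and Rab9b lay between 0.34 and 1.04 TPM in every library.

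**Figure D1:**
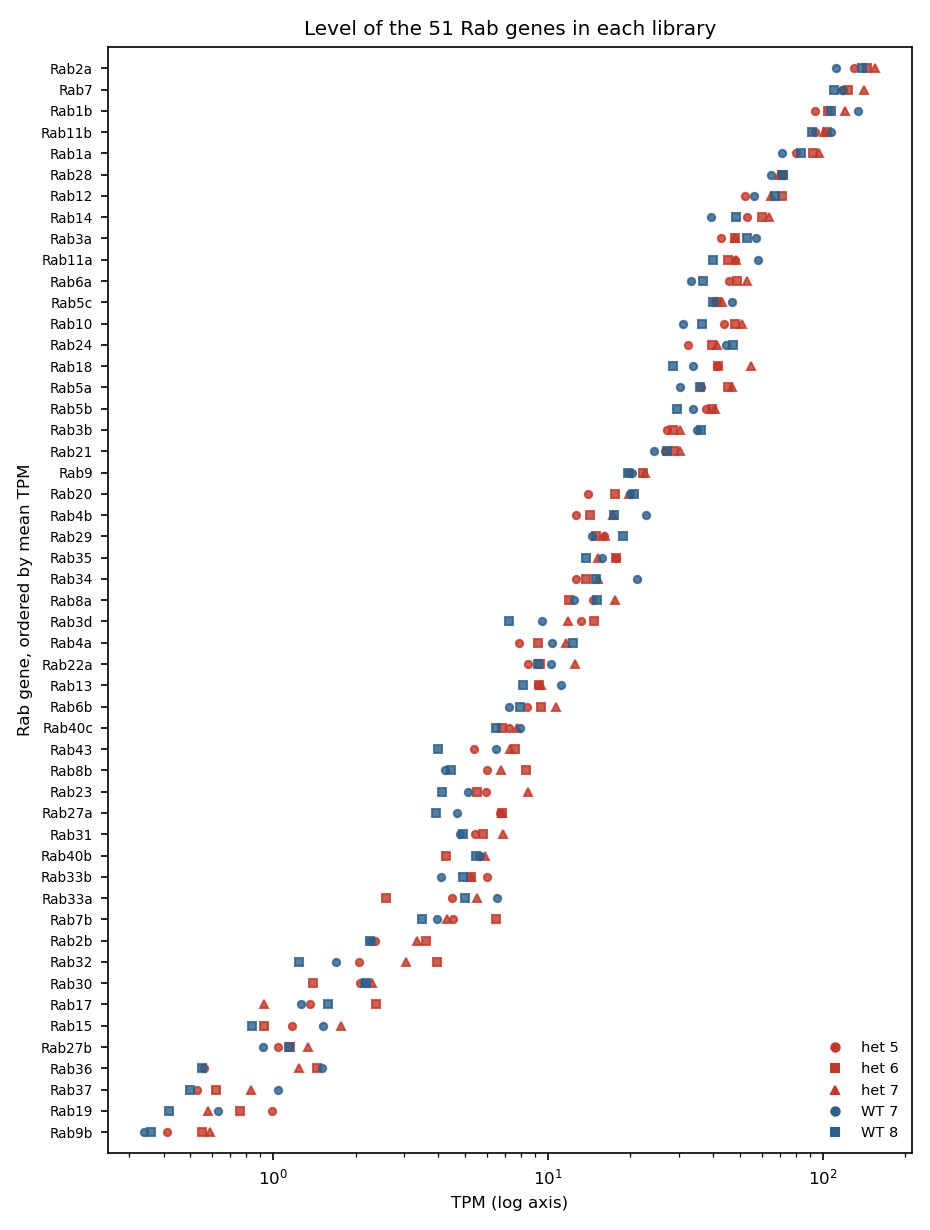
TPM of each of the 51 Rab genes in the 3 het and 2 WT libraries, on a log axis, with 1 symbol per library. The genes run from under 1 TPM (Rab9b) to over 100 TPM (Rab2a, Rab7), and the family spans a wider range than the libraries of any 1 gene.

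By the step they serve, the 13 ER and Golgi members held the largest part, 30.3% to 33.1% of the Rab TPM per library. The 10 early endosome members held 17.7% to 18.7%, the 6 recycling endosome members 14.9% to 17.5%, and the 7 late endosome, lysosome and autophagosome members 14.4% to 14.9%. The 10 members of exocytosis and delivery to the plasma membrane held 11.8% to 12.3%, and the 5 members of cilia, ubiquitin ligase adaptors and atypical roles 6.83% to 7.72%. The ER and Golgi share was higher in every het library than in either WT library, and the late endosome share lower. For single genes, TPM did not overlap between the groups in 38.9% of all tested genes.

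Between het and WT atria no Rab gene passed the test. In edgeR's quasi-likelihood test 0 of 51 had an adjusted p under 0.05, beside 5.64% of all tested genes (2.99% higher and 2.66% lower in het). That split of all genes moved with the scaling, from 490 higher and 436 lower to 795 higher and 391 lower with library size alone and to 327 higher and 568 lower with upper-quartile scaling. At an unadjusted p under 0.05 edgeR gave 12 Rab genes, 5 higher and 7 lower, which is 23.5% of the members beside a background of 24.7%. DESeq2 called 4 members (Rab8b higher, and Rab3a, Rab24 and Rab4b lower), which is 7.84% beside 10% of all genes in that fit, and limma-voom called 0 beside 2.8%. The median log2 fold change of the members was 0.02, beside -0.0014 over all tested genes, with 28 members above 0 and 23 below.

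In CPM, 23 Rab genes (45.1%) did not overlap between the groups, 10 higher and 13 lower in het, beside 42.3% of all tested genes (21.1% higher and 21.1% lower). Most differences were small: 47 of the 51 had an absolute log2 fold change under 0.5. The standard error ran from 0.12 to 0.19 for the 28 members with a mean of 10 TPM or more and from 0.13 to 0.56 for the other 23. Differences of over 3 standard errors missed the threshold in Rab4b, Rab8b, Rab3a, Rab24, Rab34 and Rab27a. A missed threshold therefore does not show equal levels.

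**Figure D2:**
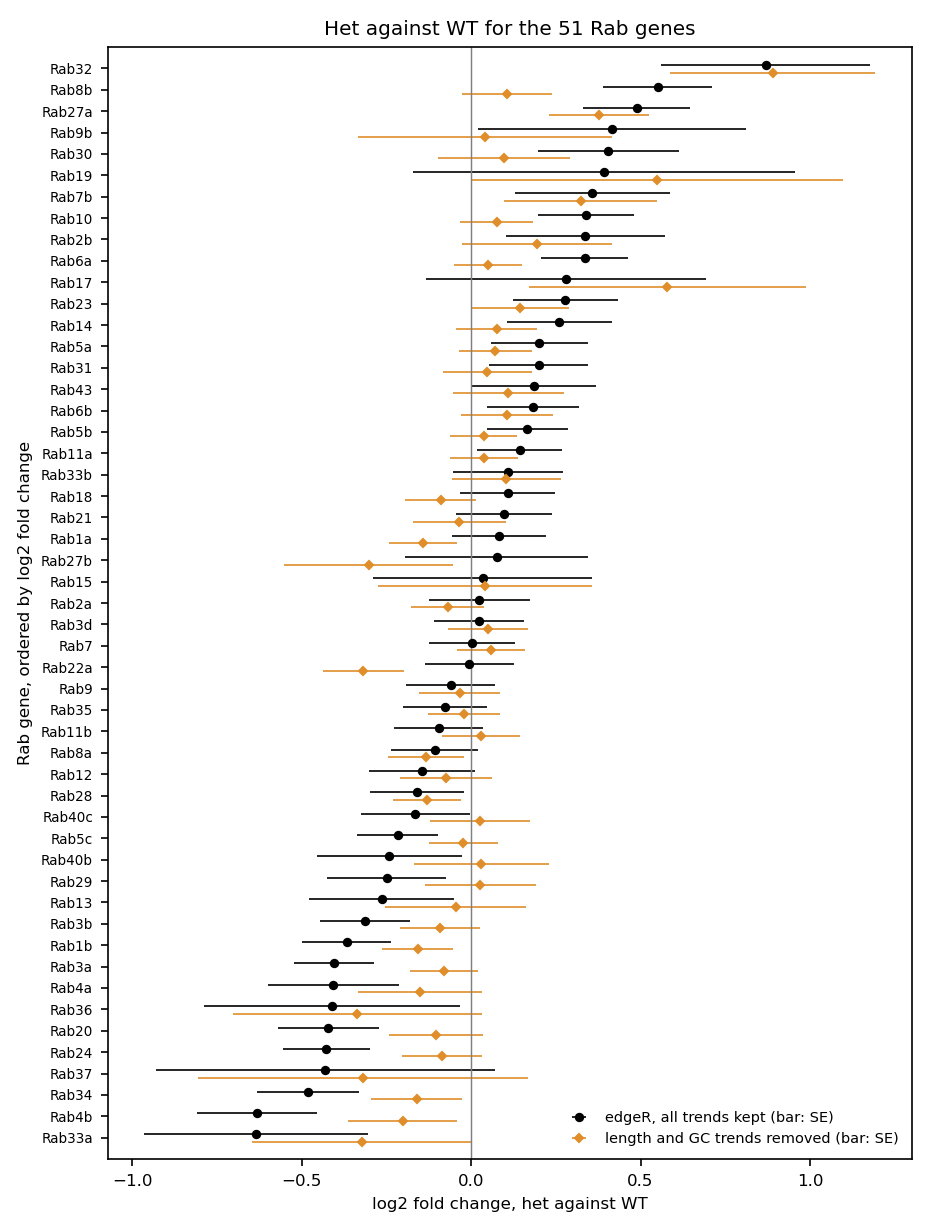
Log2 fold change of het against WT with its standard error for each Rab gene, from edgeR with all trends kept and with trends on transcript length and GC content removed. Values run from -0.63 (Rab33a, Rab4b) to 0.87 (Rab32) with the trends kept, and Rab32 stands at 0.89 with them removed.

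Among the early endosome members, Rab4b, which drives fast recycling to the surface, was at 10.5, 10.2 and 13 CPM in het and 19.1 and 15.6 CPM in WT. Every het library lay below both WT libraries. The log2 fold change was -0.63 (SE 0.18) with the smallest adjusted p of the family in edgeR, 0.0541, and it passed the threshold in DESeq2 (adjusted p = 0.0352) and with upper-quartile scaling in edgeR (adjusted p = 0.0485).

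Rab20, which acts in phagosome maturation, was at 15.2, 17.4 and 18.9 CPM in het and 21.9 and 24.1 CPM in WT, again without overlap (-0.42, SE 0.15, edgeR adjusted p = 0.1). Rab5b was at 110.3, 111 and 105 CPM in het and 98.1 and 95.8 CPM in WT, a narrow gap with het above WT (0.17, SE 0.12), and Rab5c at 67.2, 63.1 and 62.6 CPM in het and 77.4 and 72 CPM in WT, with het below WT (-0.22, SE 0.12). These 2 serve the same early endosomes, and neither passed the test.

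Rab14 was at 151, 165 and 159.7 CPM in het and 109.6 and 156 CPM in WT, and the WT libraries lay far apart (0.26, SE 0.15). Its value turned on that pair: the log2 fold change was 0.03 without WT 7 and 0.55 without WT 8, where edgeR called it (adjusted p = 0.0482). A fit without either WT sample rests on 1 WT library, assumed to vary like the others.

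The promoters of Rab4b and Rab8b are shown because these genes had the smallest p in each direction, and that of Rab32 because it had the largest fold change. Each is 300 bases from RefSeq (GRCm38.p6), 250 before to 50 after the start, 5′ to 3′ along the gene. They lie at chr7:27178834-27179133, chr9:66919656-66919955 and chr10:10558158-10558457, all on the minus strand. Capitals mark matches on both strands to the E-box CACGTG, the GC box GGGCGG, the CCAAT box CCAAT and the TATA box TATAAA.
Rab4b: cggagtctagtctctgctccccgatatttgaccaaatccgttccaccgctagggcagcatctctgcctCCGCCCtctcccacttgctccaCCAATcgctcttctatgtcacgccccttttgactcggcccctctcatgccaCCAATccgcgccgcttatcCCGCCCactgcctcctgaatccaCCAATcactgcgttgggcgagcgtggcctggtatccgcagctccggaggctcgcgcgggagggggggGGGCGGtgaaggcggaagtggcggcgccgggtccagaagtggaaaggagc
Rab8b: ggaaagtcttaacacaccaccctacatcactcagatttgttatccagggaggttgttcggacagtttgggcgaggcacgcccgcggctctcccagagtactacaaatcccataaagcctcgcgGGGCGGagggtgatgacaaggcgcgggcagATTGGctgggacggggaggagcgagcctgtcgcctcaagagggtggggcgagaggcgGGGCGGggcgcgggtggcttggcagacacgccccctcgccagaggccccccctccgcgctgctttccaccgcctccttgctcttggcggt
Rab32: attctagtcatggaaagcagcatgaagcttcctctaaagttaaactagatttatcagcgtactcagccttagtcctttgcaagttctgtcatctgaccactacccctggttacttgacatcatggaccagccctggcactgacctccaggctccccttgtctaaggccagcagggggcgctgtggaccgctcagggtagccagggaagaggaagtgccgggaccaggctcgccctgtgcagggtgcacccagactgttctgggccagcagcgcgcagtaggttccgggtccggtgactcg
The Rab4b promoter held 3 GC boxes and 3 CCAAT boxes, that of Rab8b 2 GC boxes and 1 CCAAT box, and that of Rab32 0 matches. Promoters were found for 43 of the 51 members. For the shares and the GC content, a filter then removed any member promoters on 1 chromosome, while the promoters of all genes kept that chromosome. This left 55 member promoters. The GC box was in 69.1% of these and in 35.7% of all 32851 promoters of the table, the CCAAT box in 41.8% and 37.4%, the E-box in 10.9% and 7.15%, and the TATA box in 3.64% and 13.6%. The median GC content was 62% for the Rab promoters and 52.7% for all. All members passed the expression filter, while the promoters of all genes were not limited to genes that did. Some members also count with more than 1 promoter. These gaps therefore do not show a trait of the Rab genes.

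Among the members of exocytosis and surface delivery, Rab3a was at 46.3, 47.2 and 45.4 CPM in het and 62.8 and 59.8 CPM in WT. The het values lay close together and below both WT values (-0.40, SE 0.12, edgeR adjusted p = 0.0617), and DESeq2 called it (adjusted p = 0.0217). Its relative Rab3b was at 27.6, 27.2 and 31.9 CPM in het and 36 and 35.9 CPM in WT, also without overlap (-0.31, SE 0.13).

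Rab8b, which carries cargo to the plasma membrane, was at 28, 36.7 and 28.1 CPM in het and 19.5 and 22.8 CPM in WT. All het libraries lay above both WT libraries, with het 6 the highest (0.55, SE 0.16, edgeR adjusted p = 0.0613). It was called in DESeq2 (adjusted p = 0.0476) and in edgeR with library size alone (adjusted p = 0.0403), and its log2 fold change was 0.41 without het 6.

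Rab10, known for bringing the glucose transporter GLUT4 to the surface, was at 147, 153 and 152 CPM in het and 103 and 135 CPM in WT. The groups did not overlap, though WT 8 lay nearer to het than to WT 7 (0.34, SE 0.14, edgeR adjusted p = 0.163). Without WT 8 edgeR called it (0.56, adjusted p = 0.0432), and without WT 7 it stood at 0.16.

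Rab27a, which docks secretory lysosomes in blood and pigment cells, was at 18, 17.8 and 15.6 CPM in het and 12.4 and 12 CPM in WT. All het libraries lay above both WT libraries (0.49, SE 0.16, edgeR adjusted p = 0.0799).

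Among the late endosome and lysosome members, Rab32, which serves lysosome-related organelles, was at 3.89, 6.89 and 5.1 CPM in het and 3.2 and 2.57 CPM in WT. These are low levels, higher in every het library than in either WT library, with het 6 the highest. The log2 fold change was the largest of the family (0.87, SE 0.31, edgeR adjusted p = 0.102). It was 0.64 without het 6, and the threshold was passed only where every gene with a count was tested (0.92, edgeR adjusted p = 0.0458).

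Rab24, a Rab tied to autophagy, was at 30.3, 33.7 and 33.4 CPM in het and 41.5 and 46 CPM in WT, without overlap (-0.43, SE 0.13, edgeR adjusted p = 0.0655), and DESeq2 called it (adjusted p = 0.0394). Rab7b, which acts between late endosomes and the Golgi, was at 11.7, 13.3 and 7.99 CPM in het and 8.81 and 8.3 CPM in WT. The het libraries spread from below to above the WT libraries (0.36, SE 0.23).

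As a sum, macrophage markers were higher in every het library than in either WT library. Of 5 such markers edgeR called 2 higher in het, and 4 were higher at an unadjusted p under 0.05. Summed, they stood at 183 to 255 CPM in het, highest in het 6, and at 131.7 to 132.4 CPM in WT. Platelet markers summed to 20.2 to 45.6 CPM in het and 17.3 to 21.4 CPM in WT, and erythroid markers to 1891 to 3797 CPM and 437 to 1523 CPM, with none called. Endothelial markers summed to 815 to 861 CPM in het and 740.5 to 749 CPM in WT, also with none called. The 5 mast cell and neutrophil markers summed to 7.09 to 13.5 CPM in het and 6.63 to 7.28 CPM in WT, with overlap. Of the 3 that were tested none was called, and 1 was higher in het at an unadjusted p under 0.05 in edgeR. Ly6g, a neutrophil marker of this list, was at 0 in all libraries. The part of these cells in the Rab values was not tested.

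Among the ER and Golgi members, Rab6a was at 131, 134 and 137 CPM in het and 98.1 and 114 CPM in WT. All het libraries lay above both WT libraries (0.34, SE 0.13, edgeR adjusted p = 0.127). Rab33a, a low-level Golgi Rab, was at 3.75, 1.92 and 4.03 CPM in het and 5.62 and 4.44 CPM in WT, with every het library below WT and a wide error (-0.63, SE 0.33).

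Rab34, which is needed to build the primary cilium, was at 15.2, 14.7 and 15.5 CPM in het and 23.4 and 18.8 CPM in WT. The het libraries lay close together below both WT libraries (-0.48, SE 0.15, edgeR adjusted p = 0.0732), and the log2 fold change was -0.31 without WT 7. The fibroblast markers, of which edgeR called 1 of 5, summed to 1574 to 1608 CPM in het, 1524 CPM in WT 7 and 1070 CPM in WT 8. Their part was not tested.

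The fold change followed transcript length, here the mean length over the libraries, in the Rab genes as in all tested genes. The 17 shortest Rab genes (1124 to 1917 bases) had a median log2 fold change of -0.31, with 2 above 0. The 17 of middle length had a median of 0.02, and the 17 longest (2895 to 6437 bases) one of 0.20, with 16 above 0. All 7 members lower at an unadjusted p under 0.05 were among the shortest, and 4 of the 5 higher ones among the longest, Rab32 being the other. Over all tested genes in the same 3 ranges of length, split at the upper bound of the short and of the middle Rab genes, the medians were -0.24, -0.02 and 0.20.

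With trends on length and GC content removed for each library, edgeR called 0 Rab genes and 0% of all tested genes. Rab4b went from -0.63 to -0.20, Rab8b to 0.11, Rab3a to -0.08, Rab24 to -0.09 and Rab34 to -0.16. Rab6a went to 0.05, Rab10 to 0.08 and Rab20 to -0.10. All of these lay nearer to 0 than before.

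At an unadjusted p under 0.05 there were then 3 members, beside 11.5% of all tested genes. Rab32 (0.89, SE 0.30, edgeR adjusted p = 0.28) and Rab27a (0.38, SE 0.15, edgeR adjusted p = 0.352) kept most of their size. Rab22a, an early endosome Rab with the largest mean length of the family, went from -0.01 to -0.32, SE 0.12 (edgeR adjusted p = 0.328). The medians of the 17 shortest, 17 middle and 17 longest genes were then -0.09, 0.03 and 0.08, and those of all tested genes in these ranges -0.01, -0.01 and -0.02.

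**Figure D3:**
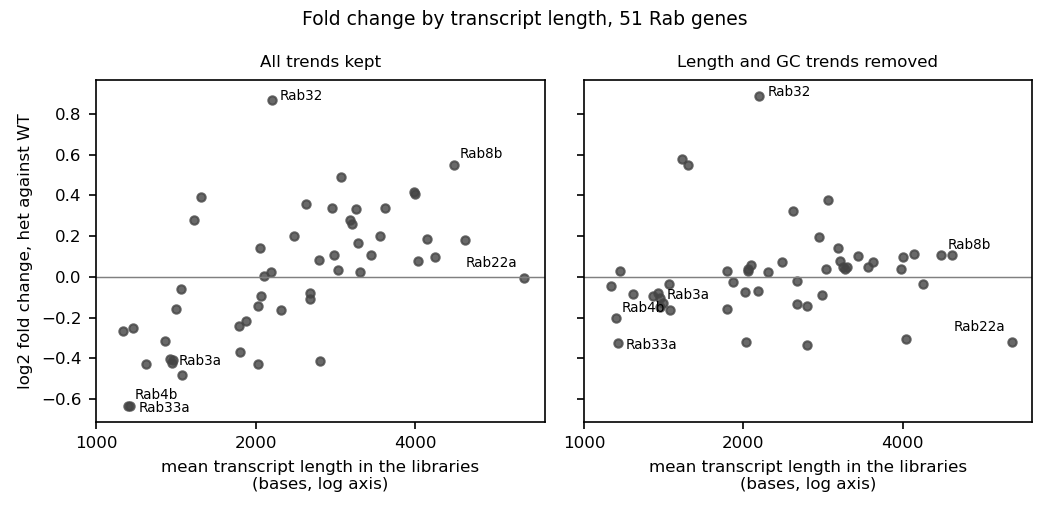
Log2 fold change of het against WT for the 51 Rab genes by mean transcript length in bases (log axis), with all trends kept and with length and GC trends removed. With trends kept, the 17 shortest genes have a median of -0.31 and the 17 longest one of 0.20, and with them removed Rab32 stands at 0.89.

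Relatives that share a number were compared by their share of the family's summed TPM. Of 13 such families with 28 genes, 7 had a member whose share did not overlap between the groups. No share of this kind was computed for other genes, and the nearest background is the 38.9% of all tested genes whose TPM did not overlap. With 3 against 2 libraries the smallest exact two-sided permutation p is 0.2, so no share can pass 0.05. In the Rab3 family Rab3d held 15.9%, 16.1% and 13.2% in het and 9.32% and 7.49% in WT, larger in every het library, while its CPM overlapped. The deposited isoform percent of the main Rab3d transcript was 61.6, 62.7 and 73.3 in het and 90.1 and 98.8 in WT without overlap, and the part of this in the TPM share was not tested.

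In the Rab8 family Rab8b held 29.2%, 41% and 27.8% in het and 25.3% and 22.6% in WT, with het 6 apart from the others. In the Rab1 family Rab1a held 46.1%, 46.8% and 44.6% in het and 34.7% and 43.8% in WT, with WT 7 apart. In the Rab5 family Rab5c held 35.6%, 32.6% and 33% in het and 42.2% and 38% in WT, smaller in every het library.

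In the Rab27 family Rab27a held 86.6%, 85.6% and 83.6% in het and 83.5% and 77.4% in WT, and the gap between het 7 and WT 7 was narrow. In the Rab6 and Rab9 families the group means differed by 1.64 and 0.61 percentage points. The Rab2, Rab4, Rab7, Rab11, Rab33 and Rab40 families overlapped.

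**Figure D4:**
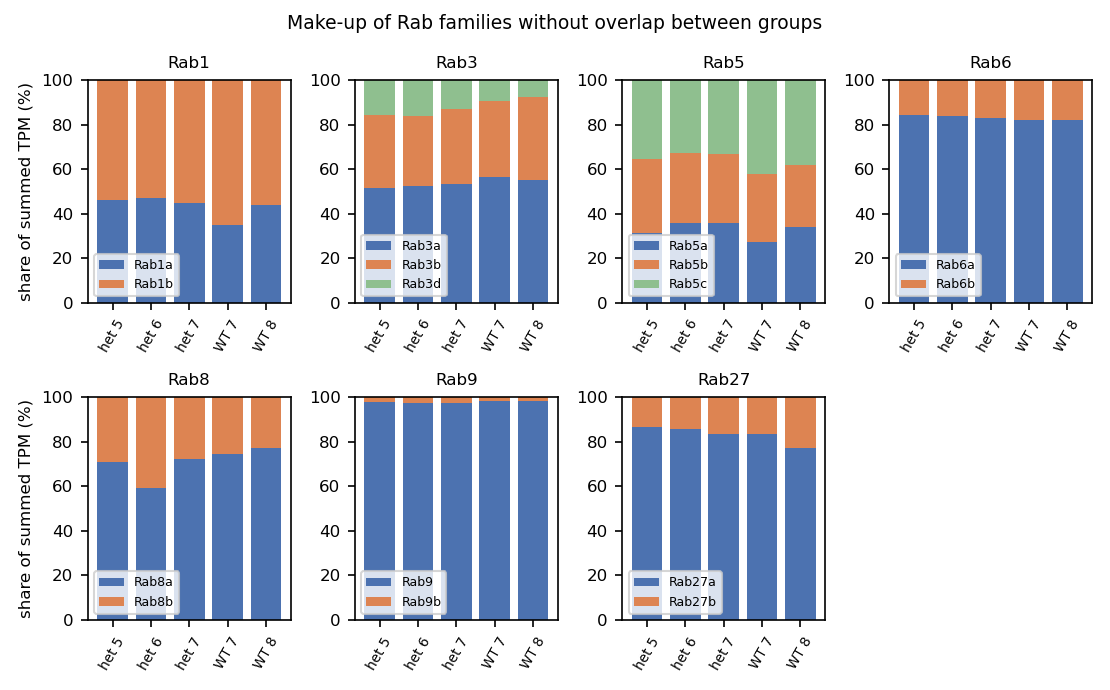
Share of the summed TPM (percent) held by each member in the 7 Rab families without overlap between the groups, 1 bar per library. Rab3d and Rab8b take a larger share in each of the 3 het bars than in the 2 WT bars.

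Several Rab genes are made as more than 1 transcript. In 28 of the 51 a single transcript held at least 95% of the expected counts. Of the rest, 18 had at least 100 expected counts in every library, and in 7 of these (38.9%) the share of the most abundant transcript did not overlap between het and WT, beside 31.9% of 6475 genes of this kind. By the authors' deposited isoform percent, Rab3b and Rab40c of these 18 overlapped and Rab43 did not.

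Rab6a exchanges coding sequence between its transcripts. They carry 1 of 2 mutually exclusive coding exons of 106 bases, at chr7:100629838-100629943 in Rab6a-201 and at chr7:100629666-100629771 in Rab6a-202 and Rab6a-203 (GRCm38, plus strand). Both are shown because the choice between them changes the protein, and capitals mark the 30 positions at which they differ.
Rab6a-201: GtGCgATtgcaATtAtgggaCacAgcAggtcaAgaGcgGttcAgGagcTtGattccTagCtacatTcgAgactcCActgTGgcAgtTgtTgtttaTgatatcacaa
Rab6a-202 and Rab6a-203: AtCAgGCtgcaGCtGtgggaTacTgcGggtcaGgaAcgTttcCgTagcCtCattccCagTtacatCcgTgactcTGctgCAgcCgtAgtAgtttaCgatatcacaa
Transcripts with the first exon held 70.9%, 70.4% and 69.3% in het and 70.8% and 63.5% in WT of the Rab6a expected counts. The groups overlapped, and WT 8 stood apart.

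Rab11b is split between Rab11b-203 (1544 bases) and Rab11b-201 (6109 bases). The shorter one lacks 75 coding bases at chr17:33749903-33749977 (GRCm38, minus strand). They are shown because the P-loop motif, which binds the nucleotide, was found in the reading frame of Rab11b-201 and not in that of Rab11b-203.
Rab11b-201: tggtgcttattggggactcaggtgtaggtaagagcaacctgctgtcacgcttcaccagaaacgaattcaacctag
Rab11b-203 held 43.7%, 41.9% and 47.5% in het and 52.1% and 51% in WT, lower in every het library (exact two-sided permutation p = 0.2). Rab11b-201 held 49.3%, 52.6% and 45.1% in het and 39.5% and 45.5% in WT, with overlap. The tables do not tell which reads lie in the 75 bases.

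In Rab30, a Golgi Rab, the transcript of 9456 bases held 88.9%, 91.8% and 81.7% in het and 73.8% and 66.7% in WT, against one of 1406 bases. In Rab3b the transcript of 1053 bases held 62.4%, 58% and 48.2% in het and 63.5% and 69.7% in WT, against one of 3327 bases. In Rab4b the transcript of 1192 bases held 72.3%, 77.7% and 73.2% in het and 78.3% and 85.4% in WT. The longer form thus had the larger share in het in Rab30 and Rab3b.

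In Rab3a the transcript of 1363 bases held 52.5%, 47.3% and 59.6% in het and 62.2% and 64% in WT, and Rab13 and Rab40c were the other genes without overlap. In 6 of these 7 genes the longer of the first 2 transcripts had the larger mean share in het, and over all 17 genes with such a pair it did in 10. The 7 were picked for their lack of overlap, and no background over other genes is given for either count.

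**Figure D5:**
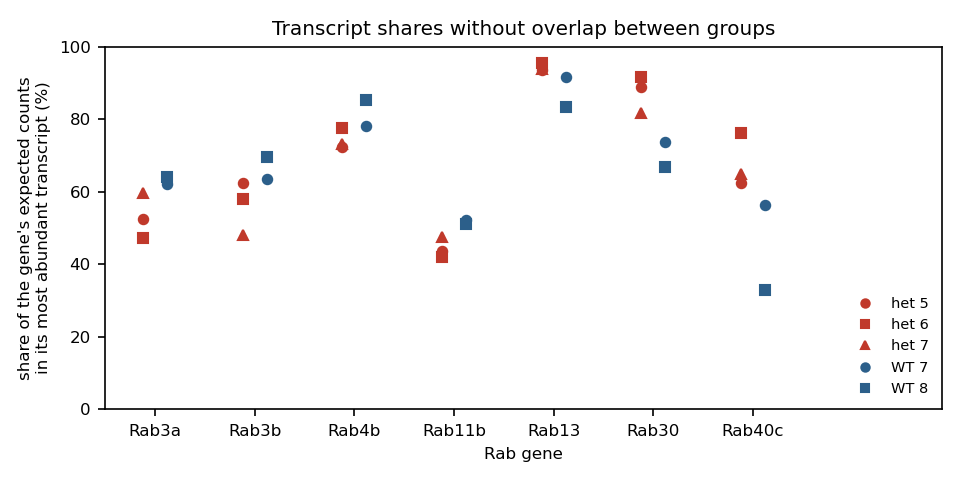
Share of a gene's expected counts (percent) in its most abundant transcript for the 7 Rab genes without overlap between the groups, 1 symbol per library. Rab3a, Rab3b, Rab4b and Rab11b are lower in het, and Rab13, Rab30 and Rab40c higher.

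Genes that load, unload, anchor and read Rab proteins were taken from 5 lists. Over these edgeR called 10 of 147 tested (6.8%), beside 5.64% of all tested genes, and with a list of collagen receptor uptake partners added 11 higher and 3 lower of 166 (8.43%). In DESeq2 the share over the 6 lists was 10.2%, beside 10% of all genes. Of 44 exchange factors 2 were higher (list median 0.10): Dennd4c, which acts on Rab10 (0.61, SE 0.14, edgeR adjusted p = 0.0321), and Gapvd1, which acts on Rab5 (0.53, SE 0.12, edgeR adjusted p = 0.0351).

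Of 36 GTPase-activating proteins 4 were higher and 1 lower (list median 0.07). Tbc1d8b had the smallest p (0.77, SE 0.14), followed by Tbc1d10c (-0.67, SE 0.15) and Tbc1d14 (0.55, SE 0.14). The others, named after their values were seen, were Tbc1d5 and Tbc1d2b. Of 54 effectors tested (list median 0.11) 1 was called, the early endosome tether gene Eea1, at 51.3, 50.9 and 40.7 CPM in het and 29.1 and 29 CPM in WT (0.71, SE 0.14, edgeR adjusted p = 0.0262).

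Of 8 genes of prenylation and membrane release 1 was higher, the escort protein gene Chm (0.64, SE 0.16, list median 0.07). Of 5 Rab kinases and phosphatases 1 was lower, Ppm1j (-0.74, SE 0.15, list median 0.02). Of 19 genes of collagen receptor uptake and recycling (list median -0.08) 3 were higher, the clathrin heavy chain gene Cltc (0.73, SE 0.14), the retromer gene Vps35 (0.65, SE 0.14) and Snx27 (0.54, SE 0.13). The clathrin adaptor gene Ap2s1 was lower (-0.55, SE 0.14) and is named after its value was seen.

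With length and GC trends removed, edgeR called 0 genes of these lists, and Eea1 stood at 0.25, Cltc at 0.40 and Chm at 0.23. Without het 5, het 6 or het 7 there were also 0 calls in the lists, and 1, 11 and 0 over all genes. Without WT 7 there were 2 higher and 0 lower (1.2%, beside 2.31% of all genes), and without WT 8 there were 9 higher and 2 lower (6.59%, beside 5.01%).

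The authors' deposited table gives its own values for the same members, and the samples behind it are not named in it. Its t statistic is 0 for 9779 of 14927 genes and for 36 of the 51 members, which a test against a minimum fold would give, so its p-values may not be those of a test against no change. The 95% limits in the authors' deposited table leave out 0 for 2 members, Rab7b and Rab6a, and for 783 of its genes. Of the 51 members 0 had an adjusted p under 0.05 in the authors' deposited table, beside 0% of its genes, and 1 had an unadjusted p under 0.05, beside 5.6%. That member of the authors' deposited table was Rab7b (0.62, 95% limits 0.10 and 1.15, p = 0.0304). The next by p in the authors' deposited table were Rab6a (0.51, p = 0.0674), Rab14 (0.57, p = 0.0745), Rab5b (-0.51, p = 0.0899) and Rab4b (-0.51, p = 0.182). In the 5 libraries here Rab5b had the other sign, at 0.17, and 28 of the 51 members were above 0. Rab27a, at 0.49 here, was at -0.16 in the authors' deposited table, and Rab24, at -0.43 here, was at -0.01. Rab32 (0.23), Rab8b (0.16) and Rab3a (-0.28) kept their sign there. The members' median was -0.13 in the authors' deposited table and -0.03 over all its genes, with 39 of the 51 below 0. Of the list genes called here, Vps35 (-0.13), Tbc1d2b (-0.08), Tbc1d14 (-0.07) and Dennd4c (-0.01) had the other sign there. The other called list genes kept their sign. Those higher ran from 0.08 (Cltc) to 0.60 (Gapvd1), and those lower from -0.32 (Ppm1j) to -0.15 (Ap2s1).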

How the data were processed

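RNA of mouse atria was sequenced by the authors. FastQC, MultiQC, Trim Galore, STAR, SAMtools, RSEM, limma, edgeR and GRCm39 are named in the submitters' processing notes, without versions. Per the file headers, the authors deposited RSEM expected counts, TPM and isoform percent for genes and transcripts. Their comparison table, per the file headers, holds log2 fold changes with limits, mean log2 expression, a moderated t as a score and p-values per gene. Here expected counts were rounded and fitted with edgeR 4.0.16 in R 4.3.3 (filterByExpr, TMM, robust quasi-likelihood, Benjamini-Hochberg over 16412 genes, threshold 0.05), without covariates. CPM used TMM-scaled library sizes, except for the chamber genes and the summed cell type markers, which used plain library totals. DESeq2 1.42.0, limma 3.58.1 (voom, and trend on log2(TPM + 1) or log2(TPM + 0.1)), other scalings and filters, leaving out each library, and length and GC trends (mgcv 1.9.3) were alternatives. The scripts were tested on simulated data. Transcript structure and coordinates are of GENCODE M21 (GRCm38), not the authors' build. Protein sequences were not used here.

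Named by rule were the 12 most abundant Rab genes, the 5 with the smallest edgeR p in each direction, the 5 ranked first by the authors' own p, and those without overlap and an absolute log2 fold change of at least 0.5. In the lists, up to 3 called genes were named. Other members were named after their values were seen. The members and lists were chosen with earlier results of these data known.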

Additional observations from a re-analysis of the deposited data

How the results depend on the processing

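The count of Rab genes called higher was 1 with library size alone, 1 with DESeq2, 2 with every gene with a count tested, and 0 to 2 when each library was left out in turn (2 without WT 8, Rab10 and Rab14). The count called lower was 3 with upper-quartile scaling (Rab3a, Rab24 and Rab4b), 3 with DESeq2 and 1 with no count filter (Rab4b). These counts are of 51 members. Of all tested genes, either direction, 7.23% were called with library size alone and 5.45% with upper-quartile scaling. The share was 10% with DESeq2 and 7% with no count filter. The Rab median log2 fold change was 0.073 with library size alone, -0.017 with upper-quartile scaling, 0.073 when every gene with a count was tested, 0.10 on log2(TPM + 1) and 0.13 on log2(TPM + 0.1), and ran from -0.050 (without WT 7) to 0.10 (without WT 8) when libraries were left out. The median of all genes was 0.042 with library size alone, -0.047 with upper-quartile scaling and -0.14 when every gene with a count was tested. It was 0.099 on log2(TPM + 1), 0.13 on log2(TPM + 0.1), 0.012 without WT 7 and 0.0082 without WT 8. Over all genes, the calls were 795 higher with library size alone, 867 higher and 780 lower with DESeq2, 237 and 222 with limma-voom, 0 and 0 with limma-voom and quality weights, 1304 and 907 with no count filter, 0 and 1 on log2(TPM + 1), 2 and 3 on log2(TPM + 0.1), and 0 each after removal of the length and GC trends. With libraries left out they ran from 0 to 588 higher and from 0 to 290 lower: 0 and 1 without het 5, 5 and 6 without het 6, 0 and 0 without het 7, 260 and 134 without WT 7, and 588 and 290 without WT 8. In the pathway lists, the calls were 6 higher with limma-voom, 18 higher with every gene with a count, and 0 higher and 0 lower with limma-voom and quality weights, on log2(TPM + 1), on log2(TPM + 0.1) and after removal of those trends. With libraries left out they ran from 0 to 9 higher and from 0 to 2 lower. In either direction, 4.82% of the tested list genes were called with limma-voom, beside 2.8% of all tested genes. With every gene with a count tested, the list share was 12.9%, beside 7%. The cause of these changes between settings was not tested. No paired analysis was possible because the groups share only 1 replicate number. With 3 against 2 libraries no share can pass 0.05.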

Other observations

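A further 8 Rab genes, which the authors' deposited comparison does not list, had 0 to 27 expected counts per library: Rab25, Rab3c, Rab38, Rab39b, Rab39, Rab44, Rab26 and Rab42. Of these, 4 passed the expression filter and none was called by edgeR. Rab38, the closest relative of Rab32, had 3, 18 and 6 expected counts in het and 8 and 14 in WT, which overlap.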
